A study of Arabidopsis thaliana with 36 samples.

Results

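Roots of Arabidopsis thaliana seedlings were compared, 90 min after a move to a fresh plate, with roots at 0 min. The fresh plate was made with the same nitrate concentration. Libraries were chosen by their titles: the 4 libraries at 90 min on 1 mM KNO3 and the 4 at 0 min on 1 mM KNO3, 8 of the 36 in the series. All plants were wild-type ecotype Col-0, germinated on mesh over 1 mM KNO3 medium, kept 2 days at 4 °C and grown at 22 °C in 16 h light and 8 h dark until 7 days old. The move was made 2 h after dawn. At 0 min the mesh was only lifted and put back on its own plate, so the 0 min roots had been handled but had not changed plates. The 90 min roots had been moved to new medium made with the same 1 mM KNO3, and 2 plates were combined for each time point and replicate. Fresh medium, the time elapsed since handling and the later time of day cannot be told apart in this design. The other libraries of the series, at 15, 45 and 180 min on 1 mM and at 15 to 180 min on 10 mM KNO3, entered the fit and serve here only to place the 90 min values.

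Poly-A RNA was captured on streptavidin beads and counted per gene by BrAD-seq, a library method used here for digital gene expression, in which the reads of each gene are tallied. Depth was 1870909 to 7457257 counts over the 8 libraries, with replicate 1 the least deep at either time, and 19828 to 21692 genes were detected in each. Values are given as CPM, counts scaled to a common total, with TMM-scaled library sizes, and are compared only within a gene. As a check of the labelled tissue, all 8 root hair, 9 endodermis and 9 xylem marker genes listed could be tested. Of the 20 shoot marker genes listed, 9 did not pass the filter on low counts. The 11 that could be tested summed to 96.3 to 125 CPM at 0 min and 87.4 to 125 CPM at 90 min. None of these 11 was called (edgeR, 0 at an unadjusted p under 0.05, 0 with DESeq2).

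Several kinds of regulation are known to meet in a root after handling and a change of plate. Wounding and touch raise the hormone jasmonate, whose signal frees MYC transcription factors from JAZ repressor proteins and at the same time raises the genes for JAZ proteins and for enzymes that make and inactivate the hormone. Sugar shortage and darkness act through the kinase SnRK1 and bZIP transcription factors on genes of amino acid breakdown and of trehalose phosphate metabolism, and the circadian clock moves its morning genes down as the day goes on.

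At 90 min, 2214 of 18768 genes tested differed from 0 min, 1362 higher and 852 lower (edgeR quasi-likelihood test with the replicate number as a block, Benjamini-Hochberg adjusted p of at most 0.05). That is 11.8% of genes tested in either direction, 7.26% higher and 4.54% lower, and the counts of list members below are to be read against these shares. Of the called genes, 566 were higher by 2-fold or more, 130 were lower by 2-fold or more and 1518 differed by less than 2-fold. The median log2 fold change over all genes tested was -0.01, and the medians of lists below compare with it. In 1303 of the 1362 higher genes and 770 of the 852 lower genes the difference had one direction in all 4 replicate pairs. The calls rest on these same pairs, so such agreement is largely built in, and the share over all genes is not given. Without replicate 2 of both groups the count was 1417, and the count of lower genes was 476. It was 479 without replicate 3, 522 without replicate 4 and 545 without the 90 min library of replicate 2. In whole roots, fewer cells of a type and less RNA per cell cannot be told apart.

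Genes with the steepest rise included several known from wounded or jasmonate-treated tissue. VSP2, a vegetative storage protein gene used as a jasmonate marker, measured 6.21, 8.05, 3.41 and 7.86 CPM in replicates 1 to 4 at 0 min and 90.3, 145, 104 and 90 CPM at 90 min. All 4 libraries at 90 min lay above all 4 at 0 min, and the log2 fold change was 4.11 ± 0.19 (edgeR adjusted p = 1.52e-21), where ± gives a standard error taken approximately from the F statistic. BGLU24, a beta-glucosidase gene, went from 2.59 to 8.65 CPM at 0 min to 104 to 136 CPM at 90 min, a log2 fold change of 4.40 ± 0.27 (edgeR adjusted p = 1.1e-17). ABR1, a gene of the AP2/ERF transcription factor family, and DIR5, which encodes a dirigent protein, rose by 4.13 ± 0.39 and 4.66 ± 0.53 on the log2 scale. The largest fitted change was that of AT5G62360, annotated as an invertase and pectin methylesterase inhibitor, at 6.02 ± 0.49. Its 0 min libraries held 0 to 0.597 CPM and its 90 min libraries 12.5 to 17.6 CPM, and the estimate was 6.77 without the 0 min library of replicate 2, 5.38 without that of replicate 4, 6.64 without both libraries of replicate 2 and 5.39 without both of replicate 4.

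Among called genes averaging 1 log2 CPM or more, with one direction in all 4 pairs, the largest fall was -2.48 on the log2 scale. That gene had 80 counts over the 0 min libraries and 16 over the 90 min libraries. SWEET14, which encodes a sugar transporter of the SWEET family, measured 8.8, 15.5, 25.3 and 24.2 CPM at 0 min and 3.84, 4.8, 6.28 and 4.56 CPM at 90 min. Every 90 min library was below every 0 min library, and the log2 fold change was -1.98 ± 0.21 (edgeR adjusted p = 4.12e-10). AT4G04750 had a log2 fold change of -2.07 ± 0.20 and AT1G64500 one of -2.34 ± 0.23. The clock genes LHY and CCA1 and the flavonoid gene TT7 were also among the 12 lowest fold changes of the called genes, under the same limits.

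**Figure D1:**
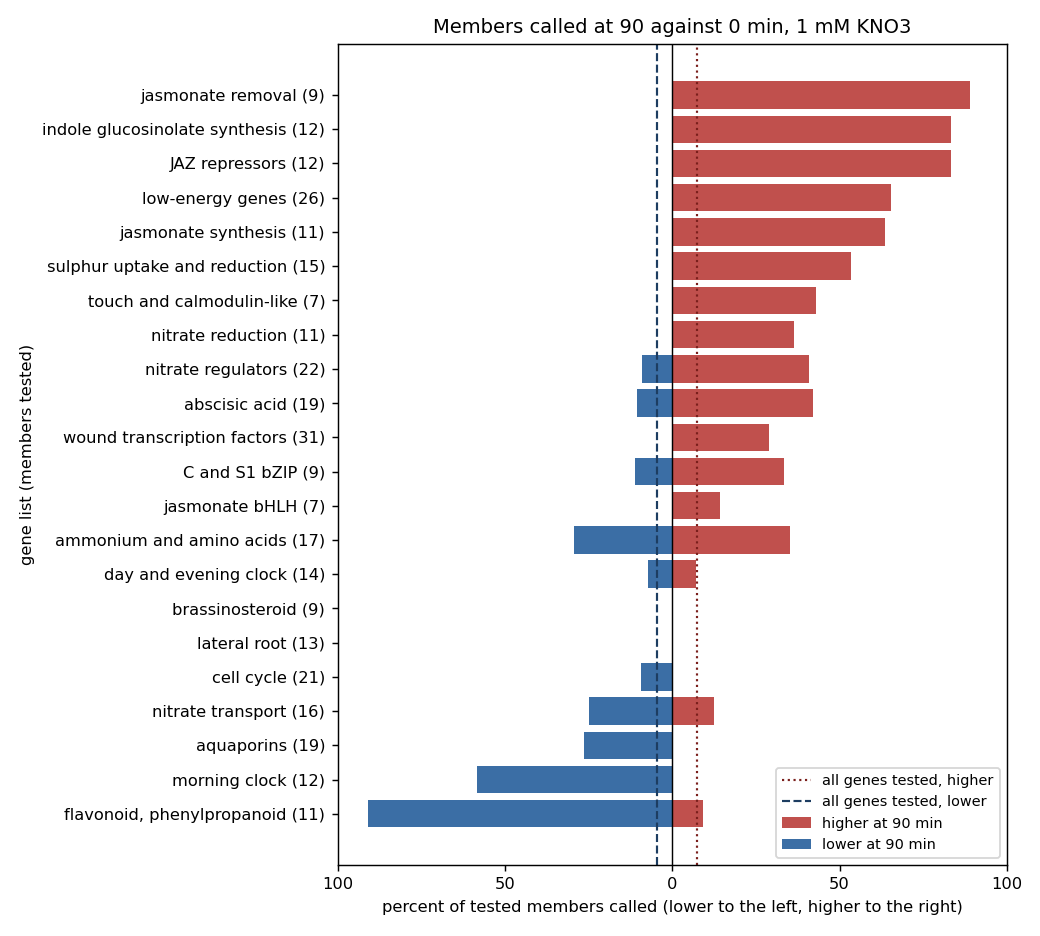
Percent of the tested members of 22 gene lists that were called higher (red, to the right) or lower (blue, to the left) at 90 min against 0 min, with the number tested in parentheses. The dotted and dashed lines mark the shares over all 18768 genes, 7.26% higher and 4.54% lower; jasmonate removal genes lie farthest to the right and flavonoid genes farthest to the left.

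The plot of list shares sets the groups side by side: genes of jasmonate, indole glucosinolates, low energy and sulphur lay mostly on the higher side, and flavonoid, morning clock and aquaporin genes on the lower side. No member of the brassinosteroid and lateral root lists was called by edgeR, while DESeq2 called 1 lateral root gene higher.

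Jasmonate genes rose among the repressor, synthesis and removal lists. Among the JAZ repressors 10 of 12 were higher and none lower, with a median log2 fold change of 1.61. JAZ10 measured 6.73, 6.86, 4.98 and 5.78 CPM at 0 min and 83.1, 37.7, 54 and 32.3 CPM at 90 min. The groups did not overlap although the 90 min libraries spread widely, replicate 1 being highest, and the log2 fold change was 3.05 ± 0.22 (edgeR adjusted p = 3.65e-15). JAZ1, with 58.4 to 68.8 CPM at 0 min and 189 to 235 CPM at 90 min, rose by 1.78 ± 0.12, and JAZ9 and JAZ5 rose by 2.64 ± 0.28 and 2.23 ± 0.25. The exceptions were JAZ11 and JAZ12, with log2 fold changes of -0.05 ± 0.19 and -0.10 ± 0.10 (edgeR adjusted p = 0.922 and 0.608).

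JAZ genes are known targets of MYC factors, which bind the G-box CACGTG. The 250 bases before the annotated gene start held CACGTG (a palindrome, so both strands are covered) in 4 of the 12 JAZ genes, 33.3%, against 7.4% of 18408 tested genes with such a stretch. The stretches of JAZ2 and JAZ7 are shown because both genes rose and each holds 1 match, in capitals; sequence and annotation are RefSeq's for TAIR10.1, chr1:28150447-28150696 on the minus strand and chr2:14572780-14573029 on the plus strand, each printed 5′ to 3′ toward the gene.
JAZ2: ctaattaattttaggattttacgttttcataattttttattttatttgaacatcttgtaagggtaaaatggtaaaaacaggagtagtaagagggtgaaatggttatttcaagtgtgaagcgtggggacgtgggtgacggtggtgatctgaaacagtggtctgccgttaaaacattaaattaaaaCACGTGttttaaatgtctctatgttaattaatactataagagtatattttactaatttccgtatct
JAZ7: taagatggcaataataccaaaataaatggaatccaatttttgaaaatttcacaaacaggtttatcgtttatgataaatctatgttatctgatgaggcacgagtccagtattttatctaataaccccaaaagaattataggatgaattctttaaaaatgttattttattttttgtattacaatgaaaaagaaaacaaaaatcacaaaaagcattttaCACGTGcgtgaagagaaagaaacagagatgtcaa
JAZ2 measured 32.6, 30.1, 29.7 and 33.5 CPM at 0 min and 79.2, 50.9, 82.7 and 64.1 CPM at 90 min, a log2 fold change of 1.12 ± 0.13. JAZ7 measured 1.55 to 4.01 CPM at 0 min and 12.5 to 14.6 CPM at 90 min (edgeR adjusted p = 1.07e-06). Neither gene had overlapping groups. A match describes the letters and is no evidence of binding, and CACGTG was 1 of 4 motifs searched over 38 lists.

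Of 11 synthesis genes tested, 7 were higher and none lower, with a median of 0.80. AOS, which encodes allene oxide synthase, measured 39.3, 31.9, 36.7 and 29.8 CPM at 0 min and 65.3, 81.3, 82.1 and 58.1 CPM at 90 min, a log2 fold change of 1.08 ± 0.15 (edgeR adjusted p = 2.74e-07). OPR3, the 12-oxophytodienoate reductase of the peroxisome, and LOX6, a 13-lipoxygenase gene, rose by 1.02 ± 0.13 and 0.90 ± 0.16. The groups did not overlap in any of these genes. MYC2 alone was called among 7 jasmonate-linked bHLH genes, with a log2 fold change of 0.68 ± 0.12.

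Genes that turn the hormone over moved further. Of 9 tested, 8 were higher and none lower, with a median log2 fold change of 1.92. ST2A, a sulfotransferase gene acting on hydroxylated jasmonate, measured 3.11, 3.88, 2.56 and 2.89 CPM at 0 min and 16.3, 23.1, 23.5 and 17.6 CPM at 90 min. The 0 min libraries lay close together and far below the 90 min libraries, with a log2 fold change of 2.78 ± 0.31 (edgeR adjusted p = 1.42e-09). Rises of 5.70 ± 0.43, 2.41 ± 0.17 and 2.22 ± 0.49 were fitted for 3 genes of the oxygenase family that hydroxylates jasmonic acid, AT2G38240, AT5G05600 and JRG21. Of the amidohydrolase genes, whose products split jasmonoyl-isoleucine, ILL6 rose by 1.92 ± 0.27 and IAR3 from 23.8 to 28.9 CPM at 0 min to 46.8 to 66.3 CPM at 90 min. CYP94B1 and CYP94B3, which oxidise it, rose by 1.60 ± 0.21 and 1.28 ± 0.23. CYP94C1 was the one member tested that was not called, at 1.44 ± 0.52 (edgeR adjusted p = 0.062).

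Part of the touch and wound genes rose. In the touch and calmodulin-like list 3 of 7 were higher, and in the wound transcription factor list 9 of 31, with no member of either list lower. TCH3, a calmodulin-like touch gene, measured 2.59, 11.6, 13.2 and 12.2 CPM at 0 min and 20.2, 47.6, 33.2 and 23.1 CPM at 90 min. Replicate 1 was the lowest at both times, and the log2 fold change was 1.54 ± 0.23 (edgeR adjusted p = 9.93e-07). The calmodulin-like gene CML38 rose by 1.51 ± 0.28. TCH4, a xyloglucan enzyme gene, was higher by 1.17 ± 0.40 (edgeR adjusted p = 0.0456), a call lost in 11 of 17 alternatives (adjusted p = 0.0514 to 0.258): with DESeq2, without the block, without any 1 of the 0 min libraries, without the 90 min library of replicate 2 or 4, and without both libraries of replicate 2, 3 or 4. The transcription factor genes ERF2 and WRKY40 rose by 2.02 ± 0.24 and 1.93 ± 0.35.

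**Figure D2:**
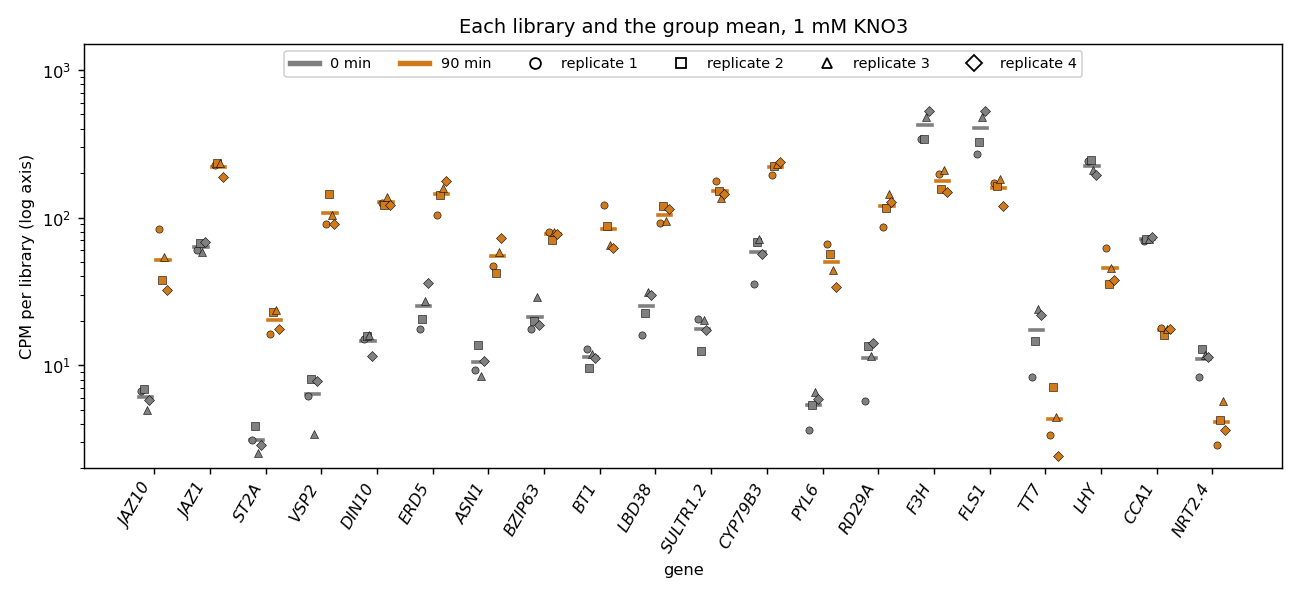
CPM of 20 genes in each of the 4 libraries at 0 min (grey) and at 90 min (orange) on a log axis; the marker shape gives the replicate and the short bar the group mean. In all 20 genes the 4 libraries at 90 min lie wholly above or wholly below the 4 at 0 min. The genes were picked from called genes with their values known, so this says nothing about genes in general. LHY had 193 to 247 CPM at 0 min and 35.7 to 62.4 CPM at 90 min.

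Clock genes that peak at dawn were lower at 90 min. Of 12 morning genes tested, 7 fell and none rose, with a median log2 fold change of -0.64. LHY, a MYB-like repressor of the core loop, measured 241, 247, 210 and 193 CPM at 0 min and 62.4, 35.7, 45.8 and 37.7 CPM at 90 min, a log2 fold change of -2.33 ± 0.12 (edgeR adjusted p = 1.25e-19). Its partner CCA1 measured 69.4, 71.3, 71.1 and 73.6 CPM at 0 min and 17.8, 15.9, 17.5 and 17.6 CPM at 90 min. The CCA1 libraries varied little within either time and did not overlap between them, with a log2 fold change of -2.06 ± 0.13 (edgeR adjusted p = 1.03e-16). The related activator genes RVE8 and RVE4 fell by 1.34 ± 0.14 and 0.58 ± 0.12 on the log2 scale, and the coactivator genes LNK1 and LNK2 by 1.05 ± 0.13 and 0.71 ± 0.13. LNK3, of the same family, fell from 34.3 to 40.2 CPM at 0 min to 13.9 to 22.1 CPM at 90 min (edgeR adjusted p = 1.35e-06).

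Genes of the day and evening clock showed no shared shift, with 1 of 14 higher, 1 lower and a median log2 fold change of 0.07. ELF4, of the evening complex, measured 33.1, 40.3, 39.2 and 42 CPM at 0 min and 25.9, 25, 24.5 and 26.6 CPM at 90 min, without overlap, and fell by 0.62 ± 0.15 on the log2 scale (edgeR adjusted p = 0.00266). LUX, of the same complex, was higher by 0.42 ± 0.13 (edgeR adjusted p = 0.0233), a call lost in 8 of 17 alternatives at adjusted p from 0.0512 to 0.145: without the block, without the 0 min library of replicate 2 or 4, without the 90 min library of replicate 2 or 3, and without both libraries of replicate 1, 2 or 3. TOC1, GI and PRR9 had log2 fold changes of 0.07 ± 0.20, -0.25 ± 0.15 and 1.05 ± 0.40 and were not called (edgeR adjusted p = 0.903, 0.353 and 0.0839).

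LHY and CCA1 proteins are known to bind the evening element AAAATATCT. Searched on both strands in the 250 bases before the gene start, it occurred in 6 of 14 day and evening genes, 42.9%, in 0 of 12 morning genes and in 2.43% of the 18408 genes. The G-box CACGTG occurred in 6 of 12 morning genes, 50%, and in 4 of 14 day and evening genes, 28.6%. Stretches of 2 morning and 2 evening genes are shown to set these side by side, with either motif in capitals, from RefSeq's TAIR10.1: LHY at chr1:37872-38121 on the minus strand, CCA1 at chr2:19245341-19245590 on the plus strand, LUX at chr3:17182792-17183041 on the plus strand and TOC1 at chr5:24674713-24674962 on the plus strand. In TOC1 the element reads on the opposite strand.
LHY: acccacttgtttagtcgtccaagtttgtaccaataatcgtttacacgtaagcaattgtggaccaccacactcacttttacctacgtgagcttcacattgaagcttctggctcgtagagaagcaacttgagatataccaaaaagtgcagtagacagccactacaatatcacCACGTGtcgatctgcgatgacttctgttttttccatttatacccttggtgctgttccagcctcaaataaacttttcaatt
CCA1: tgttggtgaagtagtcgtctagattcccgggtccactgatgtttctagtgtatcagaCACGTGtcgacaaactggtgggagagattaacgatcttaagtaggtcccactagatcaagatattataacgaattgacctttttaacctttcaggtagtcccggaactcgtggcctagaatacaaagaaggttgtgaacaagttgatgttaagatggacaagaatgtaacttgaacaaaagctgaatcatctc
LUX: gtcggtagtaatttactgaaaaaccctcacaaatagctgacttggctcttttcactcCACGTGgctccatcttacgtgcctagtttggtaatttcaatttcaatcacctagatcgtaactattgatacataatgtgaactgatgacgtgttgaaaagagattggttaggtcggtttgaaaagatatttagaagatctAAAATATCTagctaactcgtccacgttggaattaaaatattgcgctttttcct
TOC1: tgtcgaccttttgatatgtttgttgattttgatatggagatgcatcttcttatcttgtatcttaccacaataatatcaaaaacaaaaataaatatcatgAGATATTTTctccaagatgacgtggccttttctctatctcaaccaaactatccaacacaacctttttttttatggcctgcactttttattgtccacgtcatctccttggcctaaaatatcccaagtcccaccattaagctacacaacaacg
In these letters LHY and CCA1, which fell, hold the G-box alone, LUX holds both motifs, and TOC1, whose level was 8.5 to 13.2 CPM at 0 min and 10.6 to 13.6 CPM at 90 min, holds the evening element alone. Whether either motif matters for these values was not tested.

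Genes known to rise when sugar is short were higher at 90 min. Of 26 low-energy genes tested, 17 rose and none fell, with a median log2 fold change of 1.06 and within-replicate medians of 0.90, 1.18, 1.13 and 1.07 in replicates 1 to 4. DIN10, a raffinose synthase family gene induced in darkness, measured 15, 15.8, 15.9 and 11.6 CPM at 0 min and 125, 122, 138 and 122 CPM at 90 min. Both groups were tight and far apart, and the log2 fold change was 3.15 ± 0.15 (edgeR adjusted p = 1.52e-21). AT3G15450 measured 27.4, 30.1, 28.4 and 25.8 CPM at 0 min and 296, 416, 455 and 427 CPM at 90 min, a log2 fold change of 3.87 ± 0.21 (edgeR adjusted p = 5.19e-19).

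Other members of the list followed. ERD5, the mitochondrial proline dehydrogenase, measured 17.6, 20.6, 27.3 and 35.8 CPM at 0 min and 104, 142, 159 and 177 CPM at 90 min. The groups were far apart, and the log2 fold change was 2.52 ± 0.16 (edgeR adjusted p = 2.87e-17). MIOX2, a myo-inositol oxygenase, rose by 3.07 ± 0.19, DRM2, a dormancy-associated gene, by 2.39 ± 0.20, and TPS11, of the trehalose phosphate synthase family, by 1.32 ± 0.22. DIN11, an oxygenase gene induced in darkness, had 1 count over the 0 min libraries and 49 over the 90 min libraries, a ratio of 42.4 with a 95% counting interval of 7.27 to 1710. Without the 0 min library of replicate 3, which holds that count, the ratio was at least 8.78, or 8.33 without both libraries of replicate 3, taking 3 counts as the floor over the group, and it was 28.2 to 45.1 when another library or replicate was left out.

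Among 9 bZIP genes of groups C and S1, which act with SnRK1, 3 were higher and 1 lower. BZIP63 measured 17.6, 20, 28.9 and 18.6 CPM at 0 min and 80.2, 70.5, 79.9 and 76.9 CPM at 90 min, a log2 fold change of 1.81 ± 0.16 (edgeR adjusted p = 2.53e-12). The groups were wide apart. BZIP1 and BZIP53 rose by 3.10 ± 0.43 and 0.72 ± 0.11. BZIP44 was lower at -0.50 ± 0.13 (edgeR adjusted p = 0.00594), and that call was lost in 6 of 17 alternatives at adjusted p from 0.0536 to 0.201: without the 0 min library of replicate 4, without the 90 min library of replicate 2 or 4, and without both libraries of replicate 2, 3 or 4.

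Nitrogen genes moved both ways between roots on their own plate and roots on a fresh plate, both made with 1 mM KNO3. Whether nitrate supply differed between the plates was not tested. In the list of nitrate regulators 9 of 22 rose and 2 fell, with a median of 0.42. The BTB scaffold gene BT1 measured 12.9, 9.54, 11.9 and 11.2 CPM at 0 min and 121, 87.8, 65.5 and 62.5 CPM at 90 min, and BT2 and BT5 rose beside it by 2.82 ± 0.29 and 1.77 ± 0.17 on the log2 scale. BT1 itself rose by 2.76 ± 0.21 (edgeR adjusted p = 1.94e-14), with no overlap. LBD38, a transcriptional repressor induced by nitrate, measured 16, 22.7, 31.3 and 30 CPM at 0 min and 92.2, 119, 94.4 and 114 CPM at 90 min, a log2 fold change of 2.00 ± 0.17 (edgeR adjusted p = 2.98e-13). Its relatives LBD39 and LBD37 rose by 1.63 ± 0.16 and 0.91 ± 0.12, and the GARP repressor gene HRS1 by 0.92 ± 0.15. NLP3, of the NIN-like family, fell by 1.06 ± 0.16. The MADS-box gene ANR1 was lower at -1.69 ± 0.50 (edgeR adjusted p = 0.0163), a call lost at adjusted p from 0.0637 to 0.159 with no filter on low counts, without the 0 min library of replicate 3, without the 90 min library of replicate 2 or 3, and without both libraries of replicate 2.

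Of 16 nitrate transport genes 2 were higher and 4 lower. NPF6.3, the dual-affinity transporter and nitrate sensor, measured 186, 166, 175 and 138 CPM at 0 min and 308, 285, 245 and 235 CPM at 90 min, rising by 0.69 ± 0.11 (edgeR adjusted p = 1.13e-05) with no overlap. CLCA, a vacuolar exchanger, was higher at 0.52 ± 0.14 (edgeR adjusted p = 0.00974), a call lost at adjusted p from 0.0536 to 0.205 without the block, without the 0 min library of replicate 3 or 4, and without both libraries of replicate 2 or 3. The high-affinity transporter gene NRT2.4 measured 8.28, 12.8, 11.8 and 11.4 CPM at 0 min and 2.88, 4.23, 5.68 and 3.62 CPM at 90 min, a fall of 1.42 ± 0.24. NRT2.5 had 43 counts over the 0 min libraries and 1 over the 90 min libraries, a ratio of 49.7 with a counting interval of 8.45 to 2007; without the 90 min library of replicate 2 it was at least 12.5, without both libraries of replicate 2 at least 13.2, and 28.4 to 52.2 with another left out. NPF2.9 fell by 0.42 ± 0.09, and NPF3.1 was lower at -0.87 ± 0.24, a call lost without the 90 min library of replicate 2 or without replicate 3 (adjusted p = 0.0616 to 0.0704). NRT2.1, the main high-affinity transporter, had 330 to 402 CPM at 0 min and 376 to 509 CPM at 90 min and was not called (log2 fold change 0.22 ± 0.15, edgeR adjusted p = 0.437).

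Of 11 nitrate reduction genes, 4 were higher and none lower, with 1 to 5 higher across the alternatives. It was 1 without the block, without the 0 min library of replicate 1 and without both libraries of replicate 1, and 2 without the 0 min library of replicate 2, the 90 min library of replicate 4 or both libraries of replicate 2 or 4. Nitrate reductase gene NIA1 measured 117, 113, 134 and 103 CPM at 0 min and 205, 181, 181 and 121 CPM at 90 min, the groups overlapping through replicate 4. Its log2 fold change was 0.52 ± 0.16 (edgeR adjusted p = 0.0215) and lost its call in 6 of 17 alternatives (adjusted p = 0.0755 to 0.119), and the nitrite reductase gene NIR1, at 0.41 ± 0.13 (edgeR adjusted p = 0.0306), lost it in 10 of 17 (adjusted p = 0.0522 to 0.191). Both calls were lost without the block, without the 0 min library of replicate 1 or 2, without the 90 min library of replicate 3, and without both libraries of replicate 1 or 2; that of NIR1 was also lost without the 0 min library of replicate 4, the 90 min library of replicate 1 or 4, and both libraries of replicate 4. The ferredoxin gene FD3, at 0.42 ± 0.13, lost its call without the block, without the 0 min library of replicate 1, the 90 min library of replicate 4, or both libraries of replicate 1 or 4 (adjusted p = 0.0544 to 0.159). AT1G64190, a 6-phosphogluconate dehydrogenase gene, was higher by 0.57 ± 0.11 (edgeR adjusted p = 0.000146).

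Genes of ammonium and amino acid metabolism were divided, with 6 of 17 higher, 5 lower and a median of -0.11. ASN1, asparagine synthetase, the best-known low-energy gene of this set, measured 9.32, 13.7, 8.39 and 10.7 CPM at 0 min and 47.1, 41.9, 58.5 and 72.9 CPM at 90 min, a rise of 2.44 ± 0.22 (edgeR adjusted p = 5.28e-12). Its upstream stretch is shown for the G-box, a sequence that group S1 bZIP proteins can bind, in capitals, at chr3:17441432-17441681 on the minus strand in TAIR10.1; the annotation places gene AT3G47341 over part of it. CACGTG occurred in 2 of 17 ammonium and amino acid genes, 11.8%, and in 1 of 26 low-energy genes, 3.85%, against 7.4% of all 18408.
ASN1: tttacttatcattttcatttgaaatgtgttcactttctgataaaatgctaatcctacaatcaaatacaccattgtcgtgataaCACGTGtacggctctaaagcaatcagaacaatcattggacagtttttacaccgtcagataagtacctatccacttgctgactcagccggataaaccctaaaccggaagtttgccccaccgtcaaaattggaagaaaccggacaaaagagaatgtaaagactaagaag
Beside ASN1, the glutamate dehydrogenase genes GDH2 and GDH1 rose by 1.52 ± 0.14 and 0.96 ± 0.13, and GLT1, the NADH-dependent glutamate synthase, measured 198, 222, 206 and 167 CPM at 0 min and 501, 451, 489 and 395 CPM at 90 min, a rise of 1.21 ± 0.11. The members that fell were GDH3, at -1.09 ± 0.19, the cytosolic glutamine synthetase genes GLN1.4 and GLN1.1, at -0.97 ± 0.16 and -0.80 ± 0.11, the plastid glutamine synthetase gene GS2, at -0.48 ± 0.12, and the ferredoxin glutamate synthase gene GLU2, at -0.39 ± 0.11. The GLU2 call was lost at adjusted p from 0.0506 to 0.119 without the block, without the 0 min or the 90 min library of replicate 1, and without both libraries of replicate 1 or 4.

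Sulphur uptake and indole glucosinolate genes, the latter making sulphur-containing defence compounds from tryptophan, rose. Of 15 sulphur genes 8 were higher and none lower, with a median of 0.45, and 5 were higher without replicate 2. SULTR1.2, the main sulphate uptake transporter of the root, measured 20.7, 12.5, 20.2 and 17.3 CPM at 0 min and 176, 152, 136 and 145 CPM at 90 min. No libraries overlapped, and the log2 fold change was 3.07 ± 0.15 (edgeR adjusted p = 1.08e-20), the largest of the list. GGCT2.1, which degrades glutathione, rose by 1.82 ± 0.25, the ATP sulfurylase gene APS3 by 1.05 ± 0.17, and the adenosine phosphosulphate reductase genes APR3 and APR1 by 0.75 ± 0.11 and 0.62 ± 0.11. SDI1, induced under sulphur deficiency, had 61.6 to 88.6 CPM at 0 min and 49.9 to 98.3 CPM at 90 min (log2 fold change -0.06 ± 0.16, edgeR adjusted p = 0.89). BGLU28, also induced under sulphur deficiency, did not pass the filter on low counts; it had 1 count at 0 min and 30 at 90 min, a ratio of 26 with a counting interval of 4.32 to 1060, at least 5.75 without the 0 min library of replicate 4 and 6.47 without both libraries of replicate 4, and 14.8 to 29.2 with another left out.

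In the indole glucosinolate pathway 10 of 12 genes rose and none fell, with a median of 0.94. CYP79B3, which turns tryptophan into indole-3-acetaldoxime, measured 35.7, 68.3, 71.9 and 57 CPM at 0 min and 193, 222, 230 and 237 CPM at 90 min, a log2 fold change of 1.92 ± 0.13 (edgeR adjusted p = 1.04e-15). Its paralog CYP79B2 rose by 1.12 ± 0.15 and the next enzyme gene, CYP83B1, by 1.42 ± 0.13. Later steps rose too, with SUR1 at 0.82 ± 0.11, the glucosyltransferase UGT74B1 at 1.06 ± 0.12 and the sulfotransferase SOT16 at 1.02 ± 0.11. IGMT5, a methyltransferase acting on the finished compound, measured 387, 402, 345 and 346 CPM at 0 min and 947, 973, 861 and 967 CPM at 90 min, a rise of 1.34 ± 0.11. Every gene named in this paragraph so far had separate groups. The 2 members not called were the regulator MYB51, at -0.47 ± 0.25, and CYP81F2, at -0.56 ± 0.31 (edgeR adjusted p = 0.254 and 0.276). CYP81F2 was called lower with no filter and without replicate 1, and both genes were lower in replicate 1 than in the other 0 min libraries.

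Flavonoid and phenylpropanoid genes fell. Of 11 tested 10 were lower and 1 higher, with a median of -0.59. F3H, flavanone 3-hydroxylase, measured 341, 339, 478 and 530 CPM at 0 min and 196, 155, 209 and 149 CPM at 90 min, a log2 fold change of -1.27 ± 0.14 (edgeR adjusted p = 1.41e-09). FLS1, flavonol synthase, measured 271, 325, 482 and 531 CPM at 0 min and 171, 163, 183 and 120 CPM at 90 min, a log2 fold change of -1.34 ± 0.17 (edgeR adjusted p = 3.22e-08). In both genes replicates 3 and 4 were the highest at 0 min, and the groups did not overlap. TT7, flavonoid 3′-hydroxylase, measured 8.28 to 24 CPM at 0 min and 2.42 to 7.11 CPM at 90 min (edgeR adjusted p = 2.37e-08). 4CL3, a 4-coumarate ligase of the flavonoid branch, measured 27.7 to 69.5 CPM and then 13.3 to 23.5 CPM (edgeR adjusted p = 1.99e-08). The higher gene was PAL2, at the entry of the phenylpropanoid pathway, at 0.38 ± 0.12 (edgeR adjusted p = 0.0361), a call lost in 10 of 17 alternatives (adjusted p = 0.0589 to 0.152): without the block, without the 0 min library of replicate 1, 2 or 4, without the 90 min library of replicate 1, 2 or 3, and without both libraries of replicate 1, 2 or 3.

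The size of the flavonoid fall differed between replicates. Within replicates 1 to 4 the median log2 difference of the list was -0.40, -0.50, -0.51 and -1.35. The count of lower members was 6 without the block, 5 without the 0 min library of replicate 4 or without both libraries of replicate 4, and 6 without the 0 min library of replicate 3, the 90 min library of replicate 2 or 4, or both libraries of replicate 3. F3H, FLS1, TT7 and 4CL3 were called under all 17 alternatives.

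**Figure D3:**
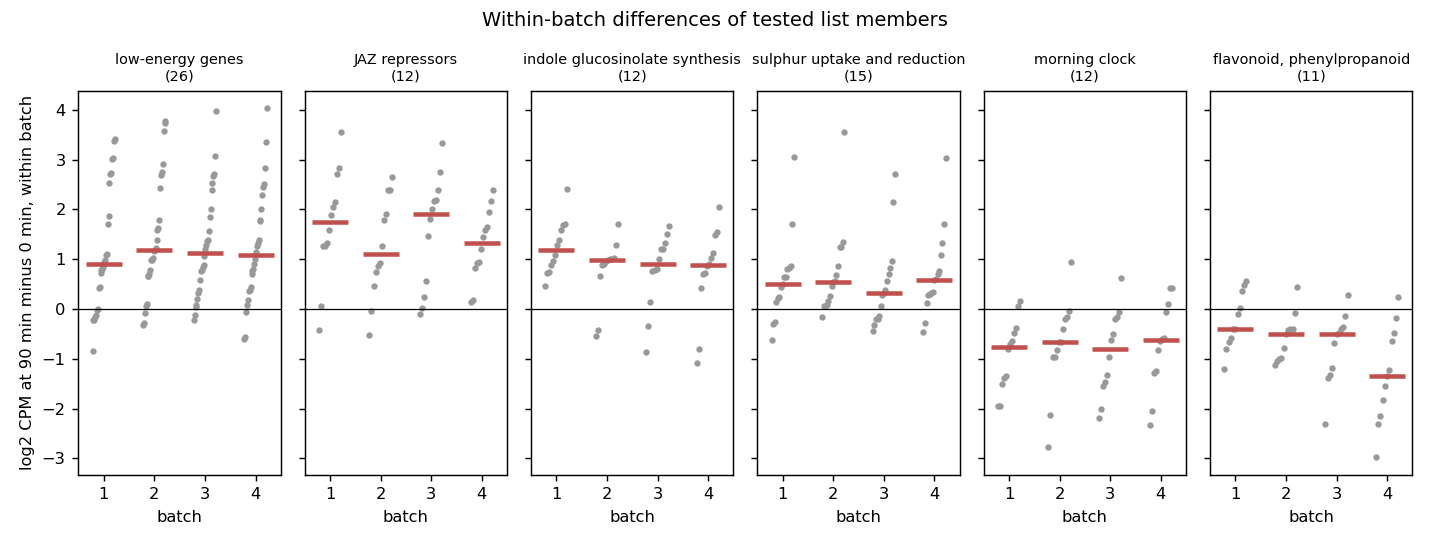
Log2 CPM at 90 min minus 0 min within each replicate number (batch) for the tested members of 6 lists (grey points, 1 per gene) with the list median (red bar). The low-energy medians lie between 0.90 and 1.18, while the flavonoid median is -1.35 in batch 4 and -0.40 to -0.51 in the others.

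The plot of within-batch differences shows that the median of each of the 6 lists had one sign in all 4 batches. These 6 lists are a selection. Among lists not plotted, some kept one sign and others did not, such as nitrate reduction, at 0.61, 0.34, -0.05 and 0.24 in batches 1 to 4.

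Abscisic acid genes moved both ways. Of 19 tested, 8 rose and 2 fell, with a median of 0.38. The receptor genes PYL6, PYL5 and PYL4 rose: PYL6 measured 3.62, 5.37, 6.54 and 5.94 CPM at 0 min and 66.3, 56.7, 44 and 33.7 CPM at 90 min, a log2 fold change of 3.02 ± 0.27 (edgeR adjusted p = 2.87e-12). PYL5 and PYL4 followed at 1.74 ± 0.16 and 0.96 ± 0.12. CYP707A3, whose product inactivates the hormone, rose by 2.34 ± 0.25, the stress response gene RD29A from 5.69 to 14.1 CPM at 0 min to 86.4 to 145 CPM at 90 min (3.36 ± 0.26), and TMAC2, a negative regulator, by 1.68 ± 0.15. The bZIP factors of the response went the other way, with ABF3 at 152, 153, 158 and 160 CPM at 0 min and 97, 82.6, 109 and 111 CPM at 90 min (-0.64 ± 0.11) and ABF2 at -0.58 ± 0.13. ABF3 had separate groups, while the ABF2 groups overlapped through replicate 1 at 0 min, with 43.5 CPM, and replicate 4 at 90 min, with 51.1 CPM.

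Of 19 water channel genes, 5 were lower and none higher, with 3 lower without the block or 2 without replicate 2. A count of 1 higher member was found with no filter, with the 8 libraries alone, without the 0 min library of replicate 4 and without replicate 4. PIP1.2, a plasma membrane aquaporin, measured 1908, 1960, 1623 and 1581 CPM at 0 min and 1311, 1077, 1310 and 1204 CPM at 90 min, a fall of 0.53 ± 0.10, and TIP2.3, of the vacuole membrane, fell by 0.60 ± 0.15. PIP1.2 reads may be shared with close relatives, since aquaporin genes resemble each other. In both genes the groups were separate. PIP1.4, PIP1.5 and TIP2.2 were lower by -0.41 ± 0.11, -0.49 ± 0.12 and -0.51 ± 0.15. Without replicate 2 all 3 lost their calls, PIP1.5 and TIP2.2 also without the block, and TIP2.2 also without the 0 min library of replicate 2 or 3 or the 90 min library of replicate 1 or 2 (adjusted p = 0.0711 for PIP1.4, 0.157 to 0.16 for PIP1.5 and 0.0545 to 0.148 for TIP2.2).

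Lists related to growth differed from each other. None of 13 lateral root genes tested was called by edgeR, with 2 higher and 1 lower at an unadjusted p under 0.05 and 1 higher with DESeq2. With edgeR, 1 was higher with RLE scaling, with no filter, with the 8 libraries alone, without the 0 min library of replicate 2, without the 90 min library of replicate 1 and without replicate 1, and 2 without the 90 min library of replicate 4. Without the 90 min library of replicate 1, 1 was also lower. LBD16 and GATA23, early genes of lateral root founder cells, had log2 fold changes of 0.40 ± 0.23 and 0.08 ± 0.40 (edgeR adjusted p = 0.322 and 0.951). Of 21 cell cycle genes 2 were lower, the D-type cyclins CYCD3.1 at -0.71 ± 0.18 and CYCD3.3 at -0.48 ± 0.12, and both calls were lost without the block and without replicate 2 (adjusted p = 0.0757 to 0.135 for CYCD3.1 and 0.0553 to 0.0918 for CYCD3.3). The mitotic cyclin CYCB1.1 had 2.7 to 5.07 CPM at 0 min and 2.82 to 5.83 CPM at 90 min (0.22 ± 0.32, edgeR adjusted p = 0.763). None of 9 brassinosteroid genes was called, with 2 higher and 1 lower at an unadjusted p under 0.05 and 0 with DESeq2.

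In the EXORDIUM list, cell wall proteins tied to growth and carbon status, 4 of 6 were higher and none lower, 66.7%, with a median of 0.40. EXL2 measured 85.4, 93.1, 81.3 and 72.5 CPM at 0 min and 134, 174, 157 and 140 CPM at 90 min, a rise of 0.88 ± 0.12 (edgeR adjusted p = 1.15e-07) with no overlap. EXL5 was higher by 1.21 ± 0.31, a call lost without the 0 min library of replicate 3 or without replicate 3 (adjusted p = 0.0819 to 0.111). EXL3 and EXL4 were higher by 0.42 ± 0.13 and 0.37 ± 0.12, calls lost in 9 and 8 of 17 alternatives (adjusted p = 0.0517 to 0.393 and 0.0578 to 0.263). For both genes these included the fits without the block, without the 0 min library of replicate 1, without the 90 min library of replicate 3 or 4, and without both libraries of replicate 1 or 4. EXL3 lost its call also without the 0 min library of replicate 4, the 90 min library of replicate 2 or both libraries of replicate 2, and EXL4 without the 0 min library or both libraries of replicate 3. The count of higher members was 2 without the block, without the 0 min library of replicate 1 or 3, without the 90 min library of replicate 3 or 4, and without replicate 1, 3 or 4.

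Of 9 CC-type glutaredoxin genes tested, 5 were higher, 55.6%, and 1 lower, with a median of 0.82, and 3 were higher with the 8 libraries alone or without replicate 4. GRX480 measured 10.4, 26.5, 27.2 and 40.9 CPM at 0 min and 32.7, 54.2, 78.8 and 86.8 CPM at 90 min, a log2 fold change of 1.27 ± 0.17 (edgeR adjusted p = 2.31e-07) that lost its call without the block (adjusted p = 0.0643). Its groups overlapped, though each replicate was higher at 90 min. GRXS13 rose by 0.82 ± 0.19, and AT1G06830 fell from 13.5 to 27.6 CPM at 0 min to 7.78 to 9.99 CPM at 90 min (edgeR adjusted p = 9.06e-06). The neighbouring genes AT4G15690, AT4G15680 and AT4G15670, whose reads can be shared, were higher by 3.39 ± 0.58, 2.52 ± 0.63 and 1.86 ± 0.53 from at most 0.853 CPM at 0 min. Without the 0 min library of replicate 3 these were 4.08, 3.90 and 2.95, and AT4G15670 was at 2.95 also without replicate 3. AT4G15680 lost its call without replicate 4 (adjusted p = 0.0794). AT4G15670 lost it without the 0 min library of replicate 1 or 4, the 90 min library of replicate 2, or both libraries of replicate 1, 2 or 4 (adjusted p = 0.052 to 0.125).

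Some single genes of other lists stood out. PIN5, an auxin carrier of the endoplasmic reticulum, measured 19.1, 23, 25.7 and 24.9 CPM at 0 min and 11, 4.8, 8.53 and 7.92 CPM at 90 min, a fall of 1.62 ± 0.19 (edgeR adjusted p = 5.41e-09). Of 13 low-oxygen genes tested, 3 were higher, 23.1%, and 2 lower, 15.4%, with 2 to 4 higher and 0 to 3 lower across the alternatives. In that list HRE1, an ethylene response factor, and ADH1, alcohol dehydrogenase, rose by 1.14 ± 0.16 and 1.53 ± 0.29. Of 21 iron genes tested, 5 were lower, 23.8%, and 2 higher, 9.52%, with 1 to 7 lower and 2 higher across the alternatives. IRT1, the iron transporter, was lower at -0.76 ± 0.25 (edgeR adjusted p = 0.0353), a call lost with DESeq2, without the block, without the 0 min library of replicate 3 or 4, without the 90 min library of replicate 1, 2 or 4, and without both libraries of replicate 3 or 4 (adjusted p = 0.0528 to 0.265). Over the other 16 lists, 219 of 251 members could be tested, 40 were higher and 21 lower. These include the EXORDIUM, glutaredoxin, low-oxygen and iron lists.

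Cell type markers moved in a few cases beside these groups. FAR4, a fatty acyl reductase of suberin, measured 71.9, 69.5, 85.7 and 87.9 CPM at 0 min and 30.7, 39.8, 34.3 and 39.7 CPM at 90 min, a fall of 1.12 ± 0.12. ASFT, of the same 4-gene suberin list, was lower by -0.31 ± 0.11, a call lost in 13 of 17 alternatives (adjusted p = 0.0507 to 0.34), all but those with DESeq2, without the 0 min library of replicate 3, without the 90 min library of replicate 1 and without both libraries of replicate 1. The suberin list summed to 200 to 296 CPM at 0 min and 159 to 207 CPM at 90 min. The root hair gene COBL9 fell by 0.69 ± 0.14. PRP3, also of the root hair, was lower by -0.39 ± 0.11, a call lost without the block, without either library of replicate 2 or both, and without both libraries of replicate 3 (adjusted p = 0.0609 to 0.225). The 8 root hair genes summed to 533 to 607 CPM at 0 min and 379 to 572 CPM at 90 min. SUC2, the phloem sucrose carrier, rose by 0.73 ± 0.13 and the 3 phloem genes summed to 87.8 to 107 CPM at 0 min and 117 to 138 CPM at 90 min. ACL5 of the xylem list rose by 1.07 ± 0.16. BRN2 of the root tip list was lower by -0.83 ± 0.26, a call lost in 9 of 17 alternatives (adjusted p = 0.0564 to 0.149), without the 0 min library of replicate 1, 2 or 3, the 90 min library of replicate 2 or 4, or both libraries of any 1 replicate. No endodermis gene was called at 90 against 0 min (edgeR; 1 higher and 1 lower at an unadjusted p under 0.05, 0 with DESeq2). No marker in these root lists was at 0 in all 8 libraries. The part of cell type shares in the results above was not tested.

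The 90 min point was next set between its neighbours on 1 mM KNO3. Compared with 45 min, 1107 genes were called, 5.9% of those tested, 488 higher (2.6%) and 619 lower (3.3%). The 45 min library of replicate 4 was the least deep of the 36, at 1376404 counts. Its median correlation with its group mates in log2 CPM, 0.933, was also the lowest of the 36. Without replicate 4 the count was 543. Compared with 90 min, 484 genes were called at 180 min, 2.58%, with 175 higher (0.932%) and 309 lower (1.65%). The medians over all genes were -0.00 and 0.01. These comparisons share the 90 min libraries with that against 0 min, so their values are given side by side and no overlap is counted. Both counts move by over 1.5 times with the fit and with the libraries left out, as given in the closing section.

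**Figure D4:**
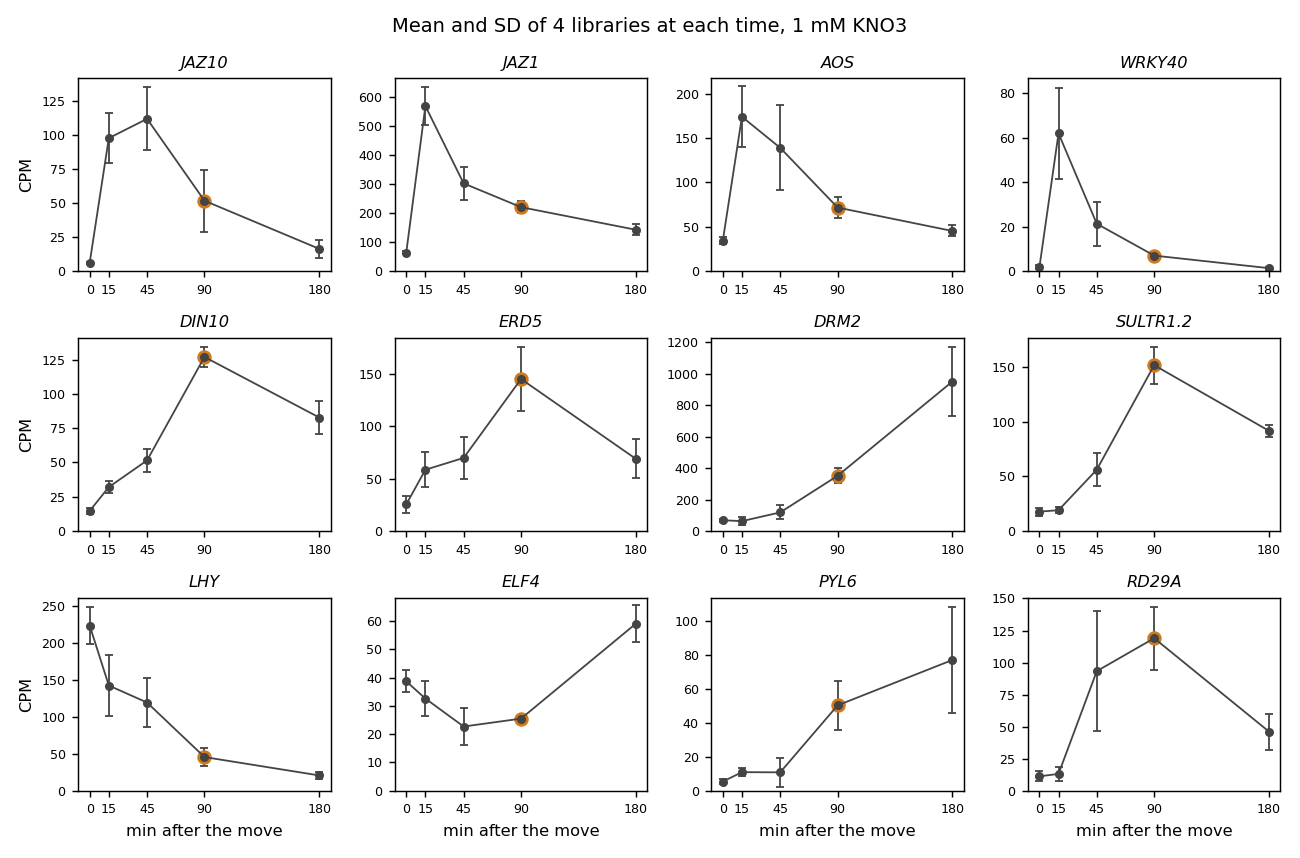
Mean CPM of 4 libraries with SD at 0, 15, 45, 90 and 180 min on 1 mM KNO3 for 12 genes, the 90 min point ringed in orange. JAZ1 had its highest mean at 15 min (570 CPM) and 221 CPM at 90 min, DIN10 its highest mean at 90 min (127 CPM), and LHY fell from 223 CPM at 0 min to 20.6 CPM at 180 min.

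The jasmonate genes of the time course plot, JAZ10, JAZ1 and AOS, were past their highest mean by 90 min. JAZ10 averaged 6.09 ± 0.883, 97.8 ± 18.2, 112 ± 23.2, 51.8 ± 22.8 and 16.4 ± 6.56 CPM (SD, n = 4) at 0, 15, 45, 90 and 180 min. Its log2 fold change was -1.17 ± 0.16 at 90 against 45 min and -1.64 ± 0.19 at 180 against 90 min (edgeR adjusted p = 2.29e-06 and 3.89e-08). Of the 12 JAZ genes, 6 were lower and 1 higher at 90 than at 45 min, and 9 were lower at 180 than at 90 min. The higher one, JAZ4, at 0.89 ± 0.24, lost its call in 6 of 17 alternatives (adjusted p = 0.067 to 0.125): without the block, with the 8 libraries alone, and without the 90 min library or both libraries of replicate 2 or 4. JAZ1 was lower at -0.64 ± 0.11 in the second step and at -0.44 ± 0.11 in the first, where the call was lost in 5 alternatives (adjusted p = 0.0561 to 0.183): without the block, with the 8 libraries alone, without the 90 min library of replicate 4, and without both libraries of replicate 1 or 4. JAZ7 and JAZ2 showed the same order, at -1.59 ± 0.23 and -1.25 ± 0.12 and then -1.67 ± 0.29 and -0.64 ± 0.12, the last call being lost without the block (edgeR adjusted p = 0.0529). Of 11 synthesis genes, 6 were lower in each step, but the second count was 2 without the block, without replicate 2 and without replicate 3, and 3 without replicate 4. AOS had -0.88 ± 0.14 and -0.69 ± 0.15, the second lost without the block and without replicate 2 (edgeR adjusted p = 0.0573 to 0.0637). WRKY40 fell in both steps, by 1.41 ± 0.25 and by 2.25 ± 0.37. VSP2 still rose from 45 to 90 min, by 0.95 ± 0.15. In the removal list 3 of 9 genes were lower at 90 than at 45 min and 4 at 180 than at 90 min, with none higher. The counts of that list in these steps were not tried in the alternatives.

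Some low-energy and sulphur genes had a higher mean at 90 min than at 45 or 180 min. DIN10 averaged 51.5 ± 8.44 CPM at 45 min, 127 ± 7.6 at 90 min and 82.8 ± 12.1 at 180 min, with log2 fold changes of 1.32 ± 0.13 and -0.61 ± 0.12 (edgeR adjusted p = 8.66e-10 and 0.00114). ERD5 averaged 69.7 ± 20.2, 145 ± 31 and 68.8 ± 18.7 CPM at the same times, with 1.12 ± 0.15 and -1.09 ± 0.14. SULTR1.2 averaged 56.2 ± 15.3, 152 ± 17 and 91.8 ± 5.66 CPM, with 1.40 ± 0.14 and -0.72 ± 0.13. In the low-energy list 9 of 26 were higher at 90 than at 45 min and none lower, while from 90 to 180 min 2 were higher and 3 lower, or 5 lower with the 8 libraries alone. MIOX2 fell with DIN10 and ERD5, by 1.08 ± 0.15. DYL1, a dormancy-associated relative of DRM2, was higher by 0.68 ± 0.17, a call lost without the block, without the 90 min library of replicate 1 or 3, and without both libraries of replicate 3 (adjusted p = 0.0531 to 0.207). DRM2 went on rising, from 118 ± 44.7 to 351 ± 47.3 and 951 ± 219 CPM, by 1.64 ± 0.19 and 1.43 ± 0.18. In the sulphur list 8 of 15 were lower at 180 than at 90 min and none higher, and 5 without the block or without replicate 2, 3 or 4. GGCT2.1 rose by 1.55 ± 0.26 in the first step and was lower by -1.25 ± 0.24 in the second, a call lost without replicate 3 (edgeR adjusted p = 0.063). APS3 fell by 1.02 ± 0.17 in the second step.

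Clock genes went on in the direction they had at 90 min or turned after it. LHY averaged 119 ± 33.3 CPM at 45 min, 45.4 ± 12.1 at 90 min and 20.6 ± 4.21 at 180 min, falling by 1.38 ± 0.13 and by 1.11 ± 0.14 on the log2 scale. CCA1 fell by 0.93 ± 0.14 and by 0.93 ± 0.16. Of 14 day and evening genes, none was called at 90 against 45 min, and 6 were higher at 180 than at 90 min, 3 without replicate 2. ELF4, lower at 90 than at 0 min, averaged 25.5 ± 0.918 CPM at 90 min and 59.1 ± 6.62 CPM at 180 min, a rise of 1.21 ± 0.15 (edgeR adjusted p = 1.11e-07). LNK2 fell by 0.92 ± 0.13 in the same step.

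Other genes also differed between 45 and 90 min. PYL6 averaged 10.8 ± 8.37 CPM at 45 min and 50.2 ± 14.3 CPM at 90 min, a log2 fold change of 2.14 ± 0.26 (edgeR adjusted p = 9.77e-08). BZIP63, GDH1, GDH2, IGMT5 and HRE1 rose in that step by 1.00 ± 0.16, 0.77 ± 0.13, 0.72 ± 0.14, 0.73 ± 0.10 and 1.12 ± 0.17. Nitrate reduction genes went the other way, with 6 of 11 lower at 90 than at 45 min and none higher, or 3 lower in the fit of the 8 libraries alone and without replicate 2. NIR1 was lower by -0.58 there, a call lost in those same fits (edgeR adjusted p = 0.0509 to 0.0819). CYP707A3 and RD29A fell from 90 to 180 min, by 2.65 ± 0.26 and 1.35 ± 0.22. BGLU24, AT5G62360 and AT2G38240, with large rises at 90 against 0 min, fell in that step by 1.03 ± 0.20, 2.35 ± 0.31 and 2.38 ± 0.29.

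Few genes differed at 90 min between the move to 10 mM and the move to 1 mM KNO3. Between these groups 9 of 18768 genes were called, 0.048%, 3 higher on 10 mM (ABF3, AAE3 and AT3G56740), 0.016%, and 6 lower, 0.032%, all differing by less than 2-fold, and 1595 had an unadjusted p under 0.05. The count was 0 without the block, 37 in the fit of the 8 libraries alone, 55 with no filter on low counts and 64 with DESeq2, and 0 to 22 with a library or replicate left out. ERD5 averaged 145 ± 31 CPM on 1 mM and 83 ± 20.1 CPM on 10 mM (log2 fold change -0.83 ± 0.14, edgeR adjusted p = 0.00776), MIOX2 49.3 ± 10.4 and 29.4 ± 8.49 CPM (-0.77 ± 0.15, edgeR adjusted p = 0.0316) and ABF3 100 ± 13.2 and 146 ± 20.1 CPM (0.54 ± 0.11, edgeR adjusted p = 0.0316). The calls of ERD5, MIOX2 and ABF3 were lost without the block, without the 1 mM library of replicate 2 at 90 min, and without replicate 2 or 3. That of MIOX2 was also lost without the 1 mM library of replicate 4 or without replicate 4, and that of ABF3 without the 1 mM library of replicate 1 or 3 or without replicate 1. The adjusted p was then 0.334 to 0.799 for ERD5, 0.0521 to 0.991 for MIOX2 and 0.0574 to 0.836 for ABF3.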

How the data were processed

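Poly-A RNA of seedling roots was counted per gene in 36 libraries, 4 in each of 9 groups. The authors deposited raw read counts for 32833 gene identifiers per library, with 0 rows naming no gene. FastQC, Bowtie2, SAMtools and HTSeq and the TAIR10 genome are named per the submitters' processing notes; their versions and settings, the annotation and the strand setting are not given in the sources used, so reads of overlapping or near-identical genes may be misassigned. Groups follow the sample titles.

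From the counts, edgeR 4.0.16 (R 4.3.3) fitted 1 quasi-likelihood model to all 36 libraries with 9 group coefficients and the batch number as a block, after TMM scaling and the filterByExpr filter, which left 18768 genes. A call needs a Benjamini-Hochberg adjusted p of at most 0.05 over those genes, within each of 4 contrasts that share the 90 min libraries, with no minimum fold. Members, gene lists and tests were chosen with earlier results of these data known. Named were the 12 highest and 12 lowest called genes of one direction in all 4 batches averaging 1 log2 CPM or more, up to 4 called members with the largest change per list, and 14 fixed genes; 56 of the 148 genes in the text lie outside this rule and were chosen after their values were seen. There were 45 lists with 663 members, 7 of them cell type markers. Standard errors are approximate.

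Libraries were paired because the labels name the replicate number a batch. Deviations of same-numbered libraries at 0 and 90 min correlated at 0.036 to 0.266, over 0.1 in 3 of 4 pairs, and for 6 of 8 libraries the best partner had the same number. No source says that batches were separate cultures, so a p-value here reflects only how much these samples vary, which may be technical. Replicate pairs differed by more than counting error, with a chi-square per degree of freedom of 3.38 to 7.99 over 12 pairs. In simulated data of 18628 genes for 90 against 0 min, the fit recovered 43.3% of 67 genes at 1.5-fold, 70.1% of 67 at 2-fold and 98.5% of 66 at 4-fold and made 8 false calls. The simulated counts were drawn from the model's own fitted means and dispersions, and no other gene differed between groups. The real data hold far more called genes, so these figures are not error rates of the real comparison. Genes with under 3 counts in a group are given as summed counts with 95% intervals and a floor of 3 counts, which cover counting error only.

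Of the identifiers, 32548 matched RefSeq's TAIR10.1 annotation, which also gave the 250 bases before each gene start. Alternatives were RLE scaling, no filter, DESeq2 1.42.0, no block, only the 8 libraries of the groups compared, and leaving out each of the 8 libraries or each batch.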

Additional observations from a re-analysis of the deposited data

Results flagged for a closer look

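In 13 of 294 groups of 4 libraries checked, 1 library lay far from the other 3, where chance alone flags about 1 in 20 groups, or 14.7. At 0 min these were the highest DIN11 value (0.142 CPM, replicate 3) and the highest JRG21 value (3.11 CPM, replicate 1), and the lowest values of SUR1 (119 CPM, replicate 2) and TCH3 (2.59 CPM, replicate 1). At 90 min the highest values of BZIP53 (477 CPM, replicate 1), HRS1 (74.9 CPM, replicate 1), NRT2.5 (0.192 CPM, replicate 2), JAZ9 (33.1 CPM, replicate 3) and ABF2 (51.1 CPM, replicate 4) stood apart. So did the lowest values at 90 min of ILL6 (6.72 CPM, replicate 1), CCA1 (15.9 CPM, replicate 2), LNK1 (28.3 CPM, replicate 3) and LUX (24.3 CPM, replicate 4). For DIN11 and NRT2.5 the library that stood apart held the 1 count of its group.

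At 90 min 3 of the genes described differed between the KNO3 concentrations of the fresh plate. MIOX2 and ERD5, which rose after the move to 1 mM, were lower on 10 mM by log2 fold changes of -0.77 and -0.83, and ABF3, which fell, was higher by 0.54. All 3 calls were lost without the replicate block.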

How the results depend on the processing

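Of 183 gene values in the text that were called, 37 lost the call in at least 1 of 17 alternatives and 146 in none that gave them a value; 0 changed sign. NRT2.5, ANR1, AT4G15670, AT4G15680 and CYP94C1 had no value with the 8 libraries alone, nor had ANR1 and AT4G15680 without replicate 3. RLE scaling kept 99.6% and DESeq2 98.6% of the calls at 90 against 0 min. Without the replicate block, the pairing by batch, that comparison gave 1340 calls, 414 of them lower, all among the 2214 of the paired fit; 90 against 45 min gave 406 (187 higher, 219 lower), 180 against 90 min 220 (72 higher, 148 lower) and 10 against 1 mM 0. With only the 8 libraries of the groups compared, 90 against 45 min gave 261 (144 higher, 117 lower), 180 against 90 min 975 (381 higher, 594 lower) and 10 against 1 mM 37, which was 55 with no filter and 64 with DESeq2. The cause was not tested.

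Leaving out 1 library or 1 batch gave 1417 to 2054 calls at 90 against 0 min (941 to 1312 higher, 476 to 779 lower). It gave 543 to 1138 at 90 against 45 min (242 to 518 higher, 301 to 639 lower), 244 to 502 at 180 against 90 min (73 to 175 higher, 167 to 329 lower) and 0 to 22 at 10 against 1 mM. No 45 min, 180 min or 10 mM library was left out alone. In the contrasts other than 90 against 0 min, leaving out a 0 min library removes none of the libraries compared. Those contrasts, and the calls named from them, were therefore tried less fully. Batch 2 gave the lowest count at 90 against 0 min when left out, batch 4 at 90 against 45 min and batch 3 at 180 against 90 min. Depth limits genes of low count, such as DIN11, NRT2.5 and BGLU28, each with 1 count in a group.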
